A study of Saccharomyces cerevisiae Sigma1278b with 62 samples.

Results

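The comparison described here is that of asc1-M1X, a yeast strain that makes no Asc1 protein, with its wild type (WT) in glucose. It rests on 10 of the 62 samples of the series, chosen by their labels: 2 cultures of each strain, each with a ribosome footprint (FP) library and a total RNA library, and a second preparation of the first FP library of each strain, which the authors had already added to that library. The 8 resulting libraries were compared across all genes. In asc1-M1X a stop codon takes the place of the start codon of ASC1, so the gene is still transcribed and its intron still encodes the small nucleolar RNA snR24, and the 2 cultures are 2 isolates of that strain. WT is a single strain of the same Sigma1278b background, grown as 2 cultures. Both strains grew at 30 °C in rich medium with 2% glucose, and cycloheximide (0.1 mg/ml) was given 2 min ahead of lysis. Total RNA was selected for poly(A) tails from the extracts that gave the footprints. Other libraries are used only to show where this comparison differs. They include asc1-M1X and WT some hours after a shift from glucose to 3% glycerol, and asc1-Null in glucose. In asc1-Null a kanMX cassette replaces the ASC1 locus together with snR24. The last are total RNA libraries of asc1-M1X and WT in glucose, depleted of rRNA with Ribo-Zero instead of being selected for poly(A) tails. The titles of the mutant Ribo-Zero samples name asc1-Null, while their strain and column labels are those of asc1-M1X, and they were placed by the strain label. TE with Ribo-Zero RNA is the ratio of the same FP libraries to that RNA.

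Asc1, called RACK1 in animals and plants, is a WD-repeat protein on the head of the small (40S) ribosomal subunit, near the channel through which mRNA leaves the ribosome. It is known for roles in translation initiation, in the handling of stalled ribosomes and in signalling. In ribosome profiling, FP reads count the mRNA fragments that ribosomes protect, total RNA reads count the mRNA itself, and their ratio, the translation efficiency (TE), is a measure of ribosomes per mRNA.

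The asc1-M1X FP libraries held 8694997 and 8454039 reads on genes, against 7401736 and 8696006 in WT. The total RNA libraries held 6645950 and 6636915 reads in asc1-M1X and 5952325 and 7893947 in WT. Of 5554 ORFs, 4947 reached 128 reads in the FP libraries summed, and likewise in the total RNA libraries, and were tested. All levels below are CPM, read counts relative to the library total after TMM scaling, given in the order of the 2 cultures, and every change is a log2 ratio of asc1-M1X over WT with its standard error (SE). Changes were called with edgeR's quasi-likelihood test at a Benjamini-Hochberg adjusted p under 0.05. With 2 cultures per strain and a single WT strain, these p-values measure the spread between cultures.

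ASC1 itself (YMR116C) set the label check. Its FP level was 27.2 and 20.2 in asc1-M1X and 4362 and 4048 in WT, while its total RNA level was 2237 and 2056 in asc1-M1X and 3705 and 3590 in WT. Footprints on the gene were almost lost, and the mRNA was retained at a lower level, with no overlap between strains in either measure. Such a lack of overlap was common: it held for 76.9% of genes tested in FP, 70% in total RNA and 66.6% in TE. For ASC1 the FP change was -7.47 (SE 0.09), the total RNA change -0.76 (SE 0.06, adjusted p = 2.75e-05 with edgeR). In the Ribo-Zero libraries ASC1 had 1453 and 1543 CPM by library total alone in asc1-M1X and 3966 and 4289 in WT, so the libraries placed with asc1-M1X did contain ASC1 mRNA. Of the markers of mating type, the receptor gene STE2 of a cells had 4150 to 8016 reads in each of the 8 libraries, and MF(ALPHA)1, which makes the alpha pheromone, had 0 to 8. Other markers were less clear. The alpha-specific gene STE3 had 95 to 173 reads, and SAG1 had 6 to 26 in FP and 312 to 490 in total RNA. The a-specific genes ASG7 and MFA1 had only 24 to 96 and 65 to 144.

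FP changed for 2587 genes (52.3% of those tested), with 1328 higher (26.8%) and 1259 lower (25.4%) in asc1-M1X, and for 1879 genes with DESeq2. Total RNA changed for 1785 genes (36.1%), 907 higher (18.3%) and 878 lower (17.7%). TE changed for 20.2% of genes, with 558 higher (11.3%) and 441 lower (8.91%), and 1594 genes were called when FP and total RNA of one culture were treated as a pair. Counts of called genes in the groups below are to be read beside these shares of all genes tested. Counts with Ribo-Zero RNA have another background. With that RNA 4849 genes were tested, of which TE was higher for 236 and lower for 217, and total RNA higher for 924 and lower for 889. Most changes were small. The median called change was 0.46 for higher and -0.41 for lower genes in FP, 0.43 and -0.30 in total RNA, and 0.47 and -0.42 in TE. Changes past 2-fold were more often increases, with 187 genes higher and 41 lower in FP, 79 and 17 in total RNA, and 38 and 18 in TE. In a whole culture, a change in the share of cells that express a gene and a change in mRNA per cell cannot be told apart.

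The split into higher and lower genes depends on the scaling. The main scaling assumes that most genes do not change, and with library totals alone the median gene rose by 0.15 in FP and 0.11 in total RNA, and the split became 1995 higher and 767 lower in FP, 1510 and 435 in total RNA, and 667 and 334 in TE. The counts also depend on single asc1-M1X cultures: without asc1-M1X culture 1 the calls were 1013 in total RNA and 347 in TE, and without culture 2 they were 824 and 211.

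Across the 4947 genes, FP and total RNA changes were correlated (Pearson 0.74, Spearman 0.63), as a description with no test because both share their cultures. Genes fell into classes by which measures were called. In 517 genes FP and total RNA rose with no TE call, among them SSU1, a sulfite pump, and BNA2, which starts the kynurenine pathway. In 439 both fell, as for MDH2 and ANB1. FP and TE rose with no call in total RNA in 257 genes, among them SHM2, GLY1 and OXP1, and fell in 243, led by HAC1, AMN1, ENB1 and GDS1. All 3 measures rose in 125 genes, including PRB1, PGM2, SSA4 and UBI4, and fell in 97, including CPA1 and RPS16B. In 91 genes total RNA fell and TE rose with no FP call. CIT2, the peroxisomal citrate synthase, led that class with a total RNA level of 360 and 365 in asc1-M1X and 743 and 700 in WT, and an FP level of 123 and 116 in asc1-M1X and 105 and 109.5 in WT. CIT2 mRNA fell by 0.99 (SE 0.06) and its TE rose by 1.15 (SE 0.08), while the FP change of 0.16 (SE 0.07) was not called. The opposite pattern, total RNA higher and TE lower with no FP call, held for 59 genes, among them ENT2, an endocytosis adaptor, and GAL80, the repressor of the galactose genes.

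**Figure D1:**
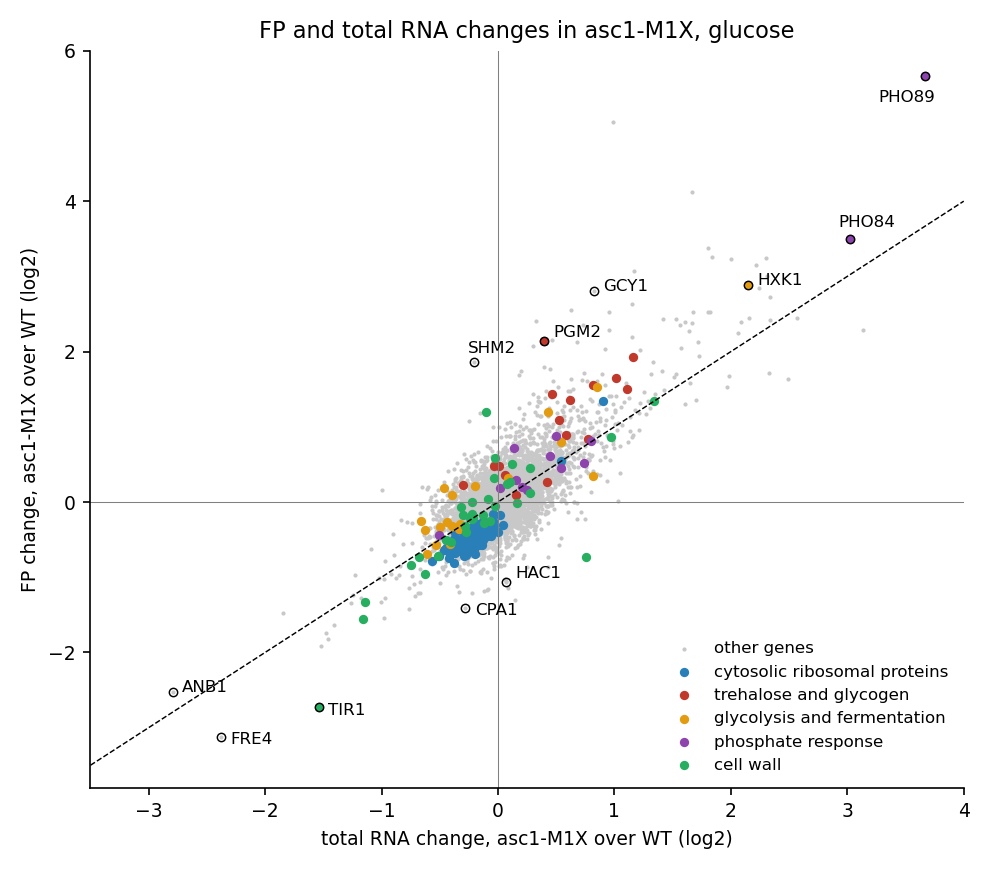
FP change against total RNA change (log2, asc1-M1X over WT) for the genes tested, with 5 groups coloured, named genes circled and the line of equal change dashed. Most trehalose and glycogen genes lie above the dashed line, most cytosolic ribosomal protein genes form a cluster below 0 on both axes, and ASC1 (FP -7.47) lies outside the plotted range.

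Genes of the translation machinery fell together at the level of the cytosolic ribosome and split elsewhere. Of 53 genes tested for proteins of the small (40S) subunit, FP fell for 51 and rose for 2, total RNA fell for 25 and rose for 2, and TE fell for 27 and rose for 1. Of 78 genes for the large (60S) subunit, FP fell for 77, total RNA for 45 and TE for 50, and none rose. With Ribo-Zero RNA, total RNA fell for 48 small-subunit and 77 large-subunit genes and TE for 5 and 11. Over all 4849 genes tested with that RNA, TE fell for 217. The median TE change with it was -0.14 in both groups, beside -0.28 and -0.31 with poly(A)-selected RNA. With library totals alone, total RNA fell for 11 and 18. RPS16B, of the small subunit, had an FP level of 1026 and 1023 in asc1-M1X and 1701 and 1668 in WT, and a total RNA level of 830 and 896 in asc1-M1X and 1020 and 1096 in WT. Both measures were lower in asc1-M1X, without overlap, which most genes tested also lacked. The change was -0.72 in FP (SE 0.04), -0.29 in total RNA (SE 0.06) and -0.42 in TE (SE 0.08). The exceptions were RPS22B and RPS14B, each one copy of a duplicated gene. RPS22B, whose intron carries a snoRNA, had an FP level of 270 and 266 in asc1-M1X and 108 and 105 in WT. Its FP rose by 1.34 (SE 0.06), its total RNA by 0.90 (SE 0.07) and its TE by 0.43 (SE 0.08). RPS14B rose by 0.54 in both FP (SE 0.06) and total RNA (SE 0.07), and its TE change was 0.00 (SE 0.10). Because only reads with a single place of alignment were counted, reads from stretches shared by such copies are missing, and the levels of near-identical paralogs are less certain.

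Elongation and initiation factors moved in both directions. Of 15 elongation and termination factor genes, FP fell for 10 and rose for 1, and total RNA fell for 10 and rose for 2, while TE fell for 3 and rose for 2, and with Ribo-Zero RNA fell for 3 and rose for 0. The 2 genes for eIF5A, the factor that helps ribosomes past difficult peptide bonds, both lost footprints. ANB1, the form made when oxygen is scarce, had an FP level of 16.1 and 18.9 in asc1-M1X and 104 and 96.9 in WT, and a total RNA level of 9.57 and 7.99 in asc1-M1X and 68.9 and 53.7 in WT. It had the largest called fall of any total RNA among genes with at least 10 reads in each library (-2.79, SE 0.17), with no TE call. HYP2, the form made in air, fell by 0.88 in FP (SE 0.04), by 0.47 in total RNA (SE 0.06) and by 0.41 in TE (SE 0.07). EFB1, which recharges elongation factor 1A with GTP, fell by 0.37 in FP (SE 0.04) and by 0.41 in TE (SE 0.06), beside a total RNA change of 0.04 (SE 0.05) that was not called. YEF3, the fungal elongation factor 3, fell by 0.54 in total RNA (SE 0.06) and by 0.17 in FP (SE 0.04), so its TE rose by 0.36 (SE 0.07). With Ribo-Zero RNA the YEF3 TE change was -0.11 (SE 0.06), of the other sign.

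Among 20 initiation factor genes, FP rose for 6 and fell for 7, and TE rose for 4 and fell for 2. Over all genes tested FP rose for 26.8% and fell for 25.4%, and TE rose for 11.3% and fell for 8.91%. The group's median TE change was 0.03 with poly(A)-selected RNA and -0.04 with Ribo-Zero RNA, where TE rose for 0 and fell for 2. Its median FP change of -0.08 was 0.06 with library totals alone. PAB1, the poly(A)-binding protein, had an FP level of 1695 and 1723 in asc1-M1X and 2411 and 2495 in WT. Its TE fell by 0.31 (SE 0.07), and that of CDC33, which encodes the cap-binding protein eIF4E, by 0.25 (SE 0.08). DED1, an RNA helicase used in scanning, moved the other way, with TE higher by 0.46 (SE 0.09), while its value with Ribo-Zero RNA was 0.18 (SE 0.06) and not called. SUI1, the start-codon selection factor eIF1, rose in FP by 0.57 (SE 0.07) and in total RNA by 0.39 (SE 0.11).

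The factors that deal with stalled ribosomes and their mRNAs had FP higher for 9 and lower for 6 of 19 genes, and TE higher for 6 and lower for 1. With library totals alone FP was higher for 11 and lower for 1, and with Ribo-Zero RNA TE was higher for 2 and lower for 1, with a median of 0.04 beside 0.15. SKI2 and SKI3 encode parts of the Ski complex, which threads mRNA into the cytoplasmic exosome. SKI3 had an FP level of 185 and 179 in asc1-M1X and 117 and 121 in WT, and a total RNA level of 169 and 168 in asc1-M1X and 199 and 198 in WT. TE rose by 0.85 for SKI3 (SE 0.08) and by 0.82 for SKI2 (SE 0.08, adjusted p = 2.16e-05 with edgeR), and with Ribo-Zero RNA by 0.42 (SE 0.09) and 0.47 (SE 0.09). SLH1, the helicase that splits stalled ribosomes, rose in TE by 0.33 (SE 0.09), while its value with Ribo-Zero RNA was 0.22 (SE 0.09) and not called. BFR1, an mRNA-binding protein found on polysomes, was the single member whose TE fell (-0.30, SE 0.10).

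Aminoacyl-tRNA synthetase genes had TE higher for 8 of 22 and lower for 0, with a median of 0.15 that became -0.02, with 0 higher and 1 lower, when Ribo-Zero RNA was used. CDC60, the leucyl enzyme, rose by 0.38 in TE (SE 0.07) and had -0.01 (SE 0.07) with Ribo-Zero RNA. Ribosome assembly factor genes had TE higher for 13 of 83 and lower for 1, total RNA lower for 29 and higher for 3, and FP higher for 16 and lower for 26, with a median FP change of -0.07 that was 0.07 with library totals alone. MPP10, of the small-subunit processome, had FP of 216 and 225 in asc1-M1X and 149 and 156 in WT, and a TE change of 0.54 (SE 0.08).

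Many genes for the mitochondrial ribosome lost footprints. FP fell for 19 of 32 small-subunit genes and rose for 0, and fell for 33 of 44 large-subunit genes and rose for 1. TE fell for 3 of the small-subunit and 5 of the large-subunit genes, shares near the 8.91% of all genes tested, and rose for 0. The median TE change was nevertheless -0.19 in the small-subunit and -0.25 in the large-subunit genes (-0.04 and -0.17 with Ribo-Zero RNA), beside -0.01 over all genes tested. IMG1, a large-subunit protein, had an FP level of 28.6 and 26.7 in asc1-M1X and 46.1 and 47 in WT (-0.75, SE 0.09). Of 26 mitochondrial translation factors and activators, FP fell for 12 and rose for 1. AEP1, needed for expression of a mitochondrially encoded ATP synthase subunit, had a total RNA level of 104 and 94.9 in asc1-M1X and 100 and 89.6 in WT, which overlapped, and an FP level of 13 and 12.1 in asc1-M1X and 21.5 and 21.2 in WT. Its TE fell by 0.83 (SE 0.15).

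**Figure D2:**
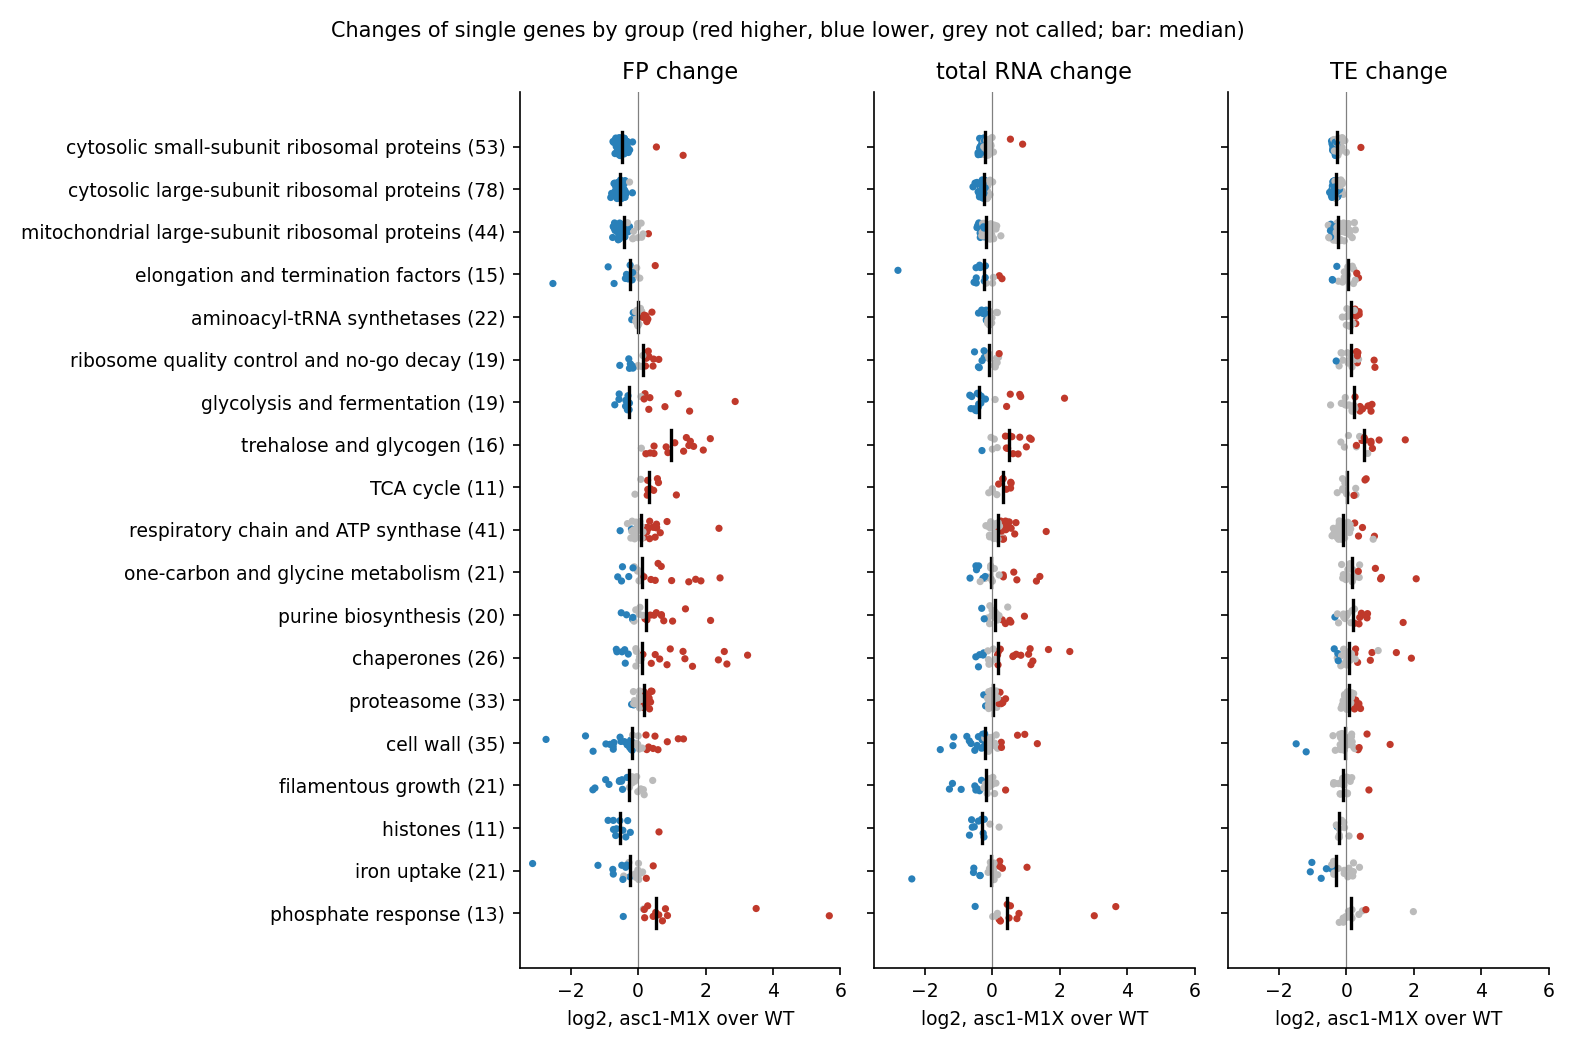
Log2 changes (asc1-M1X over WT) in FP, total RNA and TE of single genes in 19 groups, with the number tested in parentheses. Red points were called higher, blue lower and grey neither, and black bars are medians: trehalose and glycogen, TCA cycle and phosphate genes lie to the right in FP, ribosomal proteins and histones to the left.

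Most storage carbohydrate genes rose. Of 16 genes for trehalose and glycogen metabolism, FP rose for 14 and fell for 0, total RNA rose for 11 and fell for 1, and TE rose for 10 and fell for 0. The median FP change was 0.99, the median total RNA change 0.49 and the median TE change 0.52 (0.22 with Ribo-Zero RNA), beside medians near 0 over all genes tested. PGM2, the main phosphoglucomutase, had an FP level of 45.7 and 46 in asc1-M1X and 10.6 and 10.2 in WT, and a total RNA level of 60.7 and 70 in asc1-M1X and 48.9 and 50.4 in WT. The strains lay far apart in footprints and close together in mRNA, with no overlap in either, as for most genes tested. The FP change was 2.14 (SE 0.11) and the TE change 1.75 (SE 0.15, adjusted p = 9.77e-06 with edgeR). GSY2, glycogen synthase, rose by 1.93 in FP (SE 0.15) and 1.16 in total RNA (SE 0.09). TSL1 and TPS1, a regulatory and the catalytic subunit of trehalose-6-phosphate synthase, rose in FP by 1.55 (SE 0.08) and 1.09 (SE 0.06).

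Glycolytic isoenzymes diverged. Of 19 genes for glycolysis and fermentation, FP rose for 8 and fell for 10, and total RNA rose for 5 and fell for 13. HXK1, a hexokinase that glucose represses, had an FP level of 299 and 332 in asc1-M1X and 41.6 and 43.8 in WT, and a total RNA level of 143 and 170 in asc1-M1X and 39.1 and 32.4 in WT. HXK2, the hexokinase used in glucose, had an FP level of 1980 and 1962 in asc1-M1X and 2416 and 2284 in WT. HXK1 rose by 2.88 in FP (SE 0.07) and HXK2 fell by 0.25 (SE 0.04). The same held for glyceraldehyde-3-phosphate dehydrogenase, where TDH1 rose by 1.53 in FP (SE 0.08) and TDH3, the abundant form, fell by 0.69 (SE 0.06), and for enolase, where ENO1 rose by 0.80 (SE 0.05) and ENO2 fell by 0.33 (SE 0.05). These genes are pairs of close paralogs, so part of their reads are not in the table. TE of glycolytic genes rose for 8 and fell for 0 with a median of 0.23, but with Ribo-Zero RNA 1 rose and 1 fell and the median was -0.06. PFK2, a phosphofructokinase subunit, had TE higher by 0.64 (SE 0.09) and 0.05 (SE 0.07) with Ribo-Zero RNA.

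Several genes for growth on other carbon sources rose. CAT8, an activator of gluconeogenic genes, had an FP level of 12.4 and 12.2 in asc1-M1X and 1.43 and 1.32 in WT, an FP change of 3.16 (SE 0.24) with total RNA higher by 2.21 (SE 0.24). ADR1, the activator of genes for ethanol and fatty acid use, rose by 2.19 in FP (SE 0.11) and 1.04 in TE (SE 0.16). GUT2, the mitochondrial glycerol-3-phosphate dehydrogenase, rose by 1.36 in FP (SE 0.08). MDH2, the cytosolic malate dehydrogenase of gluconeogenesis, went against them: its total RNA level was 55.7 and 46.2 in asc1-M1X and 199 and 168 in WT (-1.85, SE 0.11). Of the 16 genes listed for gluconeogenesis and non-fermentable carbon, 7 had enough reads to be tested, 5 with total RNA higher and 1 lower. The read minimum is summed over both strains, so members scarce in WT could be tested only where asc1-M1X was high, as for CAT8 in FP. That count is therefore tilted towards rises and says nothing of the untested members.

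Among 11 TCA cycle genes FP rose for 9 and total RNA for 7, and none fell. TE rose for 3 and fell for 0, with a median change of 0.01 (-0.02 with Ribo-Zero RNA). The largest FP rise of the group was that of CIT1. CIT1, the mitochondrial citrate synthase, had an FP level of 238 and 246 in asc1-M1X and 110 and 110 in WT, a rise of 1.14 (SE 0.06) of which 0.55 (SE 0.06) was in total RNA. Of 41 genes for the respiratory chain and ATP synthase, FP rose for 18 and fell for 2, and total RNA rose for 17 and fell for 0. TE rose for only 4 and fell for 0, and its median change was -0.09 (0.004 with Ribo-Zero RNA). NDI1, the internal NADH dehydrogenase that stands in for complex I in yeast, had a total RNA level of 104 and 111 in asc1-M1X and 107 and 104 in WT, which overlapped, and an FP level of 168 and 169 in asc1-M1X and 98.6 and 87.2 in WT. Its TE rose by 0.83 (SE 0.10), the largest TE change of the group. In glucose sensing, RGT1, the repressor of hexose transporter genes, had more mRNA and fewer footprints, with total RNA of 281 and 237 in asc1-M1X and 188 and 173 in WT and FP of 24.9 and 19.2 in asc1-M1X and 33.3 and 32.3 in WT. Its TE fell by 1.09 (SE 0.16). MTH1, a co-repressor that acts with Rgt1, rose by 1.18 in total RNA (SE 0.17). The low-affinity transporter HXT1 fell by 0.59 (SE 0.06), the largest total RNA fall of its group. In all 12 hexose transport and glucose sensing genes tested, total RNA rose for 3 and fell for 3. FP rose for 1 and fell for 6, and TE rose for 0 and fell for 1.

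Of 26 chaperone genes FP rose for 13 and fell for 6, and TE rose for 7 and fell for 3. The median TE change was 0.07 with poly(A)-selected RNA and -0.07 with Ribo-Zero RNA. SSA4, the stress-induced Hsp70, had an FP level of 47.2 and 56.5 in asc1-M1X and 8.02 and 9.46 in WT, and a total RNA level of 90.7 and 96.7 in asc1-M1X and 60 and 61.3 in WT. Its TE rose by 1.93 (SE 0.16) and by 1.71 (SE 0.21) with Ribo-Zero RNA. HSP26, a small heat-shock protein, rose by 3.25 in FP (SE 0.21) and 2.30 in total RNA (SE 0.22), and the disaggregase gene HSP104 by 1.61 (SE 0.05) and 0.85 (SE 0.08). AHA1, an activator of Hsp90, gained mRNA (1.21, SE 0.06) and lost TE (-0.25, SE 0.07), with a TE change of -0.20 (SE 0.08) that was not called with Ribo-Zero RNA. SSB1, the Hsp70 that binds nascent chains, fell by 0.48 in FP (SE 0.04), and EGD2, of the nascent chain-associated complex, by 0.62 (SE 0.05). Of 33 proteasome genes FP rose for 19 and fell for 2. PRB1, a vacuolar protease, and UBI4, the stress-induced polyubiquitin gene, rose by 1.43 (SE 0.05) and 1.47 (SE 0.05) in FP.

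**Figure D3:**
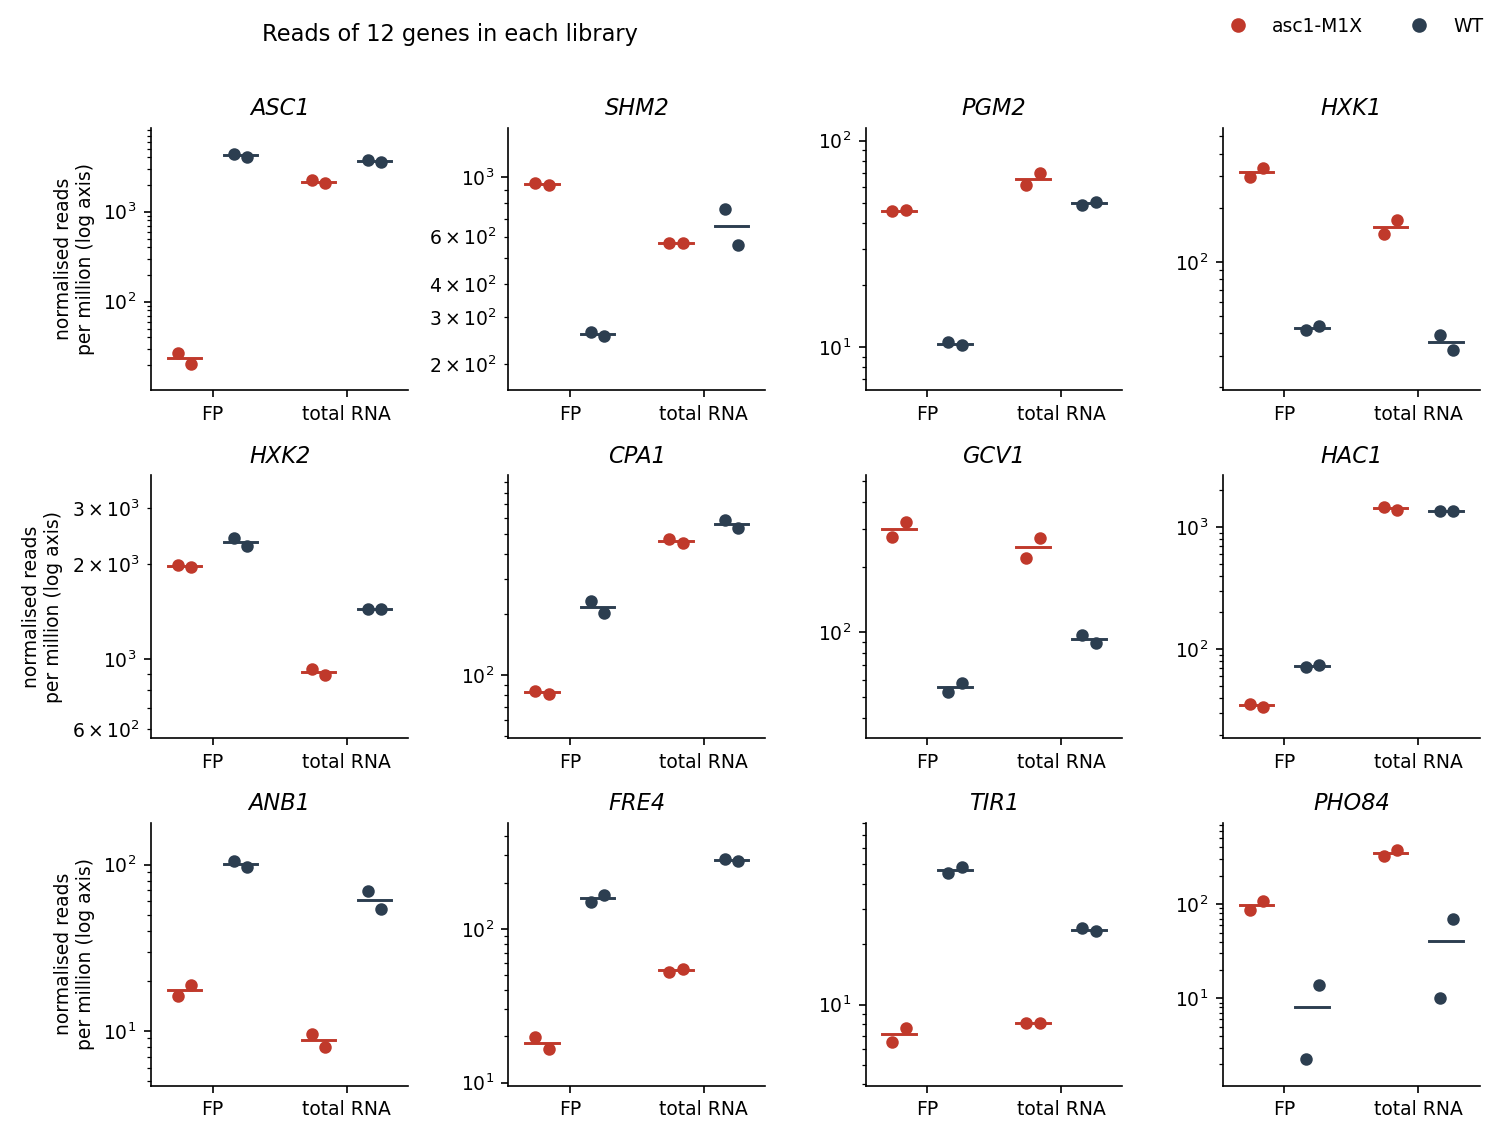
CPM after TMM scaling (log axis, scaled separately for each gene) of 12 genes in each FP and total RNA library. Points are single libraries and bars their means, asc1-M1X in red left of WT in dark blue: SHM2 differs in FP and overlaps in total RNA, ANB1 and FRE4 differ in both, and the 2 WT cultures of PHO84 lie far apart.

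Several glycine, one-carbon and purine genes gained footprints and TE. SHM2, the cytosolic serine hydroxymethyltransferase, had an FP level of 956 and 938 in asc1-M1X and 264 and 256 in WT, and a total RNA level of 568 and 569 in asc1-M1X and 758 and 558 in WT. The total RNA levels overlapped and the footprints were far apart. Its TE rose by 2.07 (SE 0.14), and by 1.43 (SE 0.09) with Ribo-Zero RNA. GLY1, the threonine aldolase that makes glycine, had an FP level of 1342 and 1405 in asc1-M1X and 700 and 677 in WT, with a TE change of 1.04 (SE 0.08) and 0.51 (SE 0.07) with Ribo-Zero RNA. In the Ribo-Zero libraries the total RNA change was 0.44 for SHM2 and 0.49 for GLY1, whereas in poly(A)-selected RNA it was -0.21 (SE 0.11) and -0.05 (SE 0.07), neither called. GCV1, of the glycine cleavage complex, rose at both levels, by 1.41 in total RNA (SE 0.10) and 1.02 in TE (SE 0.15). In the whole group of 21 one-carbon and glycine genes FP rose for 10 and fell for 5, and TE rose for 5 and fell for 0. Methionine synthase, MET6, was among those that fell, by 0.60 in FP.

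Of 20 purine biosynthesis genes FP rose for 11 and fell for 4, and TE rose for 8 and fell for 1. ADE17, which completes IMP, had an FP level of 228 and 255 in asc1-M1X and 58.7 and 50.5 in WT, and a total RNA level of 276 and 293 in asc1-M1X and 265 and 152 in WT. The WT total RNA cultures differed from each other, and the total RNA change of 0.46 (SE 0.19) was not called. TE rose by 1.69 (SE 0.25). With Ribo-Zero RNA the total RNA change was 0.79 (SE 0.07), which was called, and the TE change 1.36 (SE 0.16). BAS1, the activator of these genes, fell by 0.50 in FP (SE 0.10) and 0.23 in total RNA (SE 0.06).

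Amino acid biosynthesis genes moved in both directions, with FP higher for 23 and lower for 15 of 55. Over all genes tested FP was higher for 26.8% and lower for 25.4%. CPA1 encodes a subunit of the carbamoyl-phosphate synthetase that serves arginine synthesis, and its mRNA carries an upstream ORF whose peptide stalls ribosomes when arginine is plentiful. CPA1 had an FP level of 83.7 and 81.2 in asc1-M1X and 233 and 204 in WT, and a total RNA level of 472 and 451 in asc1-M1X and 588 and 533 in WT. The strains did not overlap in either measure, as for most genes tested. TE of CPA1 fell by 1.12 (SE 0.10, adjusted p = 1.49e-05 with edgeR), and with Ribo-Zero RNA the change was -1.02 (SE 0.09). HIS7, of histidine synthesis, rose by 0.81 in TE (SE 0.08) and LYS1, the last step to lysine, by 0.73 in total RNA (SE 0.06) and 0.38 in TE (SE 0.08). With Ribo-Zero RNA the TE change was 0.66 (SE 0.09) for HIS7, and 0.13 (SE 0.08) and not called for LYS1. GCN4, the activator of amino acid genes whose own translation is set by upstream ORFs, had a TE of 0.248 and 0.241 in asc1-M1X and 0.234 and 0.227 in WT, a change of 0.08 (SE 0.07) that was not called. In nitrogen metabolism, total RNA rose for 13 of 22 genes and fell for 3. The proline oxidase gene PUT1 rose by 1.56 in total RNA (SE 0.14), and GLN1, glutamine synthetase, fell by 0.90 (SE 0.09).

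Of 19 phosphate response genes listed, 13 had enough reads to be tested. Among these FP rose for 11 and fell for 1, total RNA rose for 9 and fell for 1, and TE rose for 1. PHO84, the high-affinity phosphate transporter, had a total RNA level of 323 and 377 in asc1-M1X and 10.2 and 70.3 in WT, and an FP level of 86.3 and 109.3 in asc1-M1X and 2.29 and 14 in WT. The 2 WT cultures differed several-fold from each other, and the size of the rise is correspondingly uncertain (3.03, SE 0.43 in total RNA). PHO89, a sodium-phosphate cotransporter, had a total RNA level of 24.2 and 27.5 in asc1-M1X and 1.93 and 2.09 in WT, and 0 FP reads in WT culture 2. It met the read minimum, which is summed over both strains, through asc1-M1X, so its place among the rises is tied to that filter. PHO81 and VTC3, the phosphate-responsive kinase inhibitor and a polyphosphate synthase subunit, rose in FP by 0.87 (SE 0.13) and 0.81 (SE 0.14). PHO4, the activator of this response, rose in TE by 0.58 (SE 0.13), while its value with Ribo-Zero RNA was 0.26 (SE 0.12) and not called.

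Iron uptake genes fell more often than they rose in FP and TE. Of 21 genes tested TE fell for 7 and rose for 0, FP fell for 9 and rose for 2, and total RNA fell for 5 and rose for 4. With library totals alone FP of these genes fell for 5 and rose for 3. Over all genes tested, total RNA was lower for 17.7% and higher for 18.3%. FRE4, a ferric reductase, had an FP level of 19.8 and 16.5 in asc1-M1X and 150 and 167 in WT, and a total RNA level of 52.3 and 55.2 in asc1-M1X and 283 and 277 in WT. After ASC1 it had the largest called fall in FP among genes with at least 10 reads in each library (-3.12, SE 0.10). ENB1, a siderophore transporter, had a total RNA level of 261 and 246 in asc1-M1X and 282 and 270 in WT and an FP level of 19.6 and 19.4 in asc1-M1X and 43.2 and 45.6 in WT. Its total RNA change of -0.12 (SE 0.06) was not called and its TE fell by 1.07 (SE 0.11). Of 23 sulfur assimilation genes FP rose for 5 and fell for 10, and with library totals alone it rose for 7 and fell for 7. MET2, which acetylates homoserine, had a total RNA level of 11.5 and 12.9 in asc1-M1X and 35.4 and 34.5 in WT (-1.52, SE 0.14), and MET3, ATP sulfurylase, lost TE (-0.84, SE 0.18) with a total RNA change of 0.09 (SE 0.10) that was not called.

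Of 19 thiamine and pyridoxine genes listed, only 9 had enough reads to be tested. Among these FP rose for 6, total RNA for 7 and TE for 3, and none fell. The median TE change was 0.08, and -0.10 without culture 1 of both strains. SNZ1 and SNO1, neighbours that make vitamin B6, rose in total RNA by 1.81 (SE 0.11) and 2.33 (SE 0.18). SNZ1 had an FP level of 427 and 510 in asc1-M1X and 80 and 82.3 in WT. Riboflavin synthesis went the other way at RIB4, lumazine synthase, with an FP level of 175 and 164 in asc1-M1X and 621 and 578 in WT and a total RNA change of -1.46 (SE 0.06).

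At the cell surface more genes fell than rose. Of 35 cell wall genes FP fell for 19 and rose for 9. With library totals alone FP fell for 13 and rose for 11, and the median FP change of -0.18 became -0.04. TIR1, a mannoprotein made in the cold and without oxygen, had an FP level of 6.54 and 7.69 in asc1-M1X and 45.5 and 48.5 in WT, and a total RNA level of 8.12 and 8.13 in asc1-M1X and 24 and 23.3 in WT. Its TE fell by 1.19 (SE 0.21), but with Ribo-Zero RNA, where its total RNA change was -2.63, the TE change was -0.08 (SE 0.36). The mannoprotein genes CWP1 and CWP2 fell in total RNA by 1.16 (SE 0.13) and 1.14 (SE 0.09). YPS1, an aspartic protease of the cell surface, rose in FP and TE, with an FP level of 241 and 222 in asc1-M1X and 108 and 95 in WT, total RNA of 204 and 190 in asc1-M1X and 233 and 193 in WT, and a TE change of 1.30 (SE 0.12).

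Of 21 filamentous growth genes FP fell for 10 and rose for 0, and total RNA fell for 8 and rose for 1. FLO11 was not analysed here. PHD1, a transcription factor of filamentation, had a total RNA level of 18.3 and 18.2 in asc1-M1X and 43 and 39.6 in WT (-1.18, SE 0.12). The G1 cyclin gene CLN1 and the pectinase gene PGU1 fell by 0.92 (SE 0.09) and 1.27 (SE 0.16) in total RNA, and no member of the group had TE called lower. AGA1, an agglutinin anchor, rose by 1.13 in total RNA (SE 0.08). Of 11 histone genes FP fell for 10, and the single rise was that of CSE4, the centromeric histone H3 (0.62, SE 0.08). HTA2 had an FP level of 248 and 257 in asc1-M1X and 441 and 491 in WT.

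HAC1, the transcription factor of the unfolded protein response, had the smallest TE p of any gene in which TE and FP fell with no call in total RNA. Its mRNA is made with an intron that blocks translation until Ire1 removes it. Total RNA was 1465 and 1377 in asc1-M1X and 1361 and 1341 in WT, while FP was 35.7 and 33.9 in asc1-M1X and 71 and 73.8 in WT. The total RNA change was 0.07 (SE 0.06) and the TE change -1.13 (SE 0.09), with -1.05 (SE 0.09) from Ribo-Zero RNA. Large changes were also found in single genes of other pathways. AMS1, the vacuolar mannosidase, had FP of 41.8 and 43.3 in asc1-M1X and 3.29 and 5.39 in WT. CYB2, the L-lactate dehydrogenase, had FP of 23.9 and 23.3 in asc1-M1X and 3.15 and 2.75 in WT. INO1, which makes inositol phosphate, rose by 1.70 in TE (SE 0.25) with a total RNA change of 0.41 (SE 0.17) that was not called.

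The TE and total RNA changes were weakly related to gene length, with opposite signs. Lengths are start-to-stop spans in the S288C reference, introns included. Over the 4947 genes, Spearman's rho with length was 0.26 for TE, -0.25 for total RNA and 0.01 for FP, as descriptions across genes that are not independent. Without the ribosomal protein genes (4740 genes) the values were 0.23, -0.30 and -0.05. In genes under 500 nt TE was called lower in 57 and higher in 7 of 470, and in genes of 3000 nt or more it was called lower in 28 and higher in 120 of 439. Total RNA in these long genes was called lower in 189 and higher in 46, while FP was called higher in 107 and lower in 107. With Ribo-Zero RNA rho was 0.07 for TE and -0.03 for total RNA. For the 439 longest genes the median TE change was 0.14 with poly(A)-selected RNA and 0.05 with Ribo-Zero RNA, and for 420 of the shortest it was -0.19 and -0.06. The part of RNA selection in the relation was not tested. Outside the ribosomal protein groups, the short genes with the smallest TE p included BOL2, an iron-sulfur protein, and HYP2, which fell, and ATG41, used in autophagy, which rose. BOL2 had a TE of 0.69 and 0.721 in asc1-M1X and 1.08 and 1.05 in WT, and ATG41 a TE of 1.75 and 1.96 in asc1-M1X and 0.975 and 1.1 in WT. With Ribo-Zero RNA the TE change of BOL2 was -0.25 (SE 0.14) and not called, and that of ATG41 was 0.46 (SE 0.13).

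**Figure D4:**
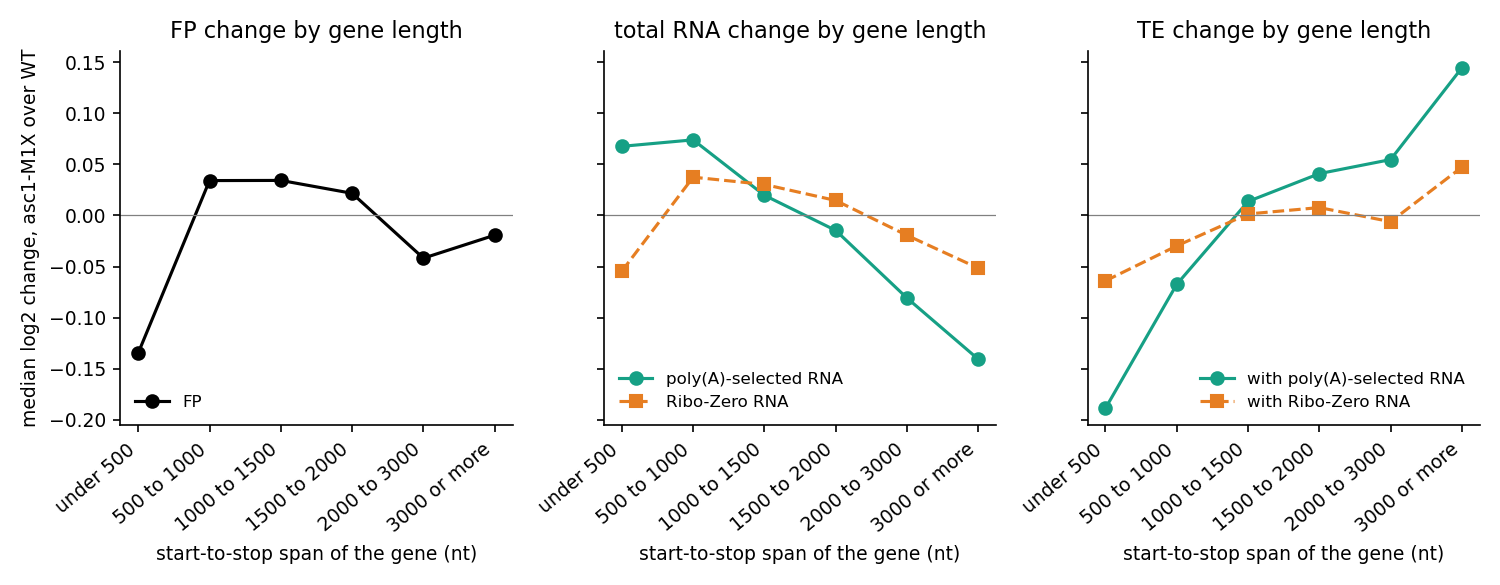
Median log2 changes (asc1-M1X over WT) in FP, total RNA and TE for 6 classes of gene length, with poly(A)-selected RNA (solid) and Ribo-Zero RNA (dashed). The TE median runs from -0.19 in genes under 500 nt to 0.14 in genes of 3000 nt or more with poly(A)-selected RNA, and from -0.06 to 0.05 with Ribo-Zero RNA.

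Set directly against asc1-Null, in which mRNA and snR24 are also lost, asc1-M1X differed at very few genes. With 4997 genes tested, 1 was called in FP, 1 in total RNA and 1 in TE (0.02% each), and without asc1-Null culture 2 the counts were 42, 23 and 2. With all cultures, 153, 56 and 49 genes had an unadjusted p under 0.05, and DESeq2 called 1, 1 and 2. ASC1 mRNA accounted for the calls in total RNA (7.10) and TE (-6.10), with 2322 and 2132 total RNA CPM (here by library total alone) in asc1-M1X and 10.9 and 20.8 in asc1-Null. The FP call was CPA1, with 88.3 and 84.9 CPM by library total in asc1-M1X and 174 and 151 in asc1-Null, beside 220 and 196 in WT. The difference was -0.91 (SE 0.08, adjusted p = 0.000155 with edgeR), and in TE it was -0.69 (SE 0.12, adjusted p = 0.0702). The spread of differences over all genes (SD 0.11 in FP, 0.13 in total RNA and 0.15 in TE) was well below that against WT (SD 0.52, 0.36 and 0.35).

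In glycerol, where yeast must respire, asc1-M1X and WT differed in TE for 169 of 4878 genes (3.46%). Per the paper, these cells were taken some hours after a shift from glucose, shortly before WT grew rapidly again. Polysomes of asc1-M1X had by then recovered only in part. Of 986 genes with a TE call in glucose, 761 had the same sign in glycerol, 65 were called with the same sign and 1 with the opposite sign. Sign agreement over all genes tested was not computed, so the first of these counts has no background to stand beside. The difference of the 2 changes, glycerol minus glucose, was itself called for 7 genes (0.144%), but for 0 without either asc1-M1X culture in glucose, for 1 without either WT culture in glucose and for 15 without either WT culture in glycerol, and 579 had an unadjusted p under 0.05. TE values of single cultures in this paragraph are by library total alone, while the changes use the TMM scaling. For SHM2 the TE was 3.26 and 3.56 in asc1-M1X and 2.55 and 2.81 in WT in glycerol, and 1.71 and 1.66 in asc1-M1X and 0.343 and 0.454 in WT in glucose. The SHM2 change was 0.33 in glycerol and 2.07 in glucose, a difference of -1.75 (SE 0.24). GCY1, a glycerol dehydrogenase, had a TE of 1.17 and 1.20 in asc1-M1X and 1.38 and 1.48 in WT in glycerol, and 0.67 and 0.732 in asc1-M1X and 0.145 and 0.197 in WT in glucose. Its TE in WT cells was thus higher in glycerol than in glucose, and the difference was -2.28 (SE 0.31). GCN4 was the only gene of the 7 with a positive difference. Its TE was 0.124 and 0.11 in asc1-M1X and 0.0428 and 0.0529 in WT in glycerol, a change of 1.28 (SE 0.13), beside the uncalled 0.08 in glucose. CPA1 lost TE in both media (-1.26, SE 0.13 in glycerol), and HAC1 had -0.63 (SE 0.40) in glycerol, which was not called.

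**Figure D5:**
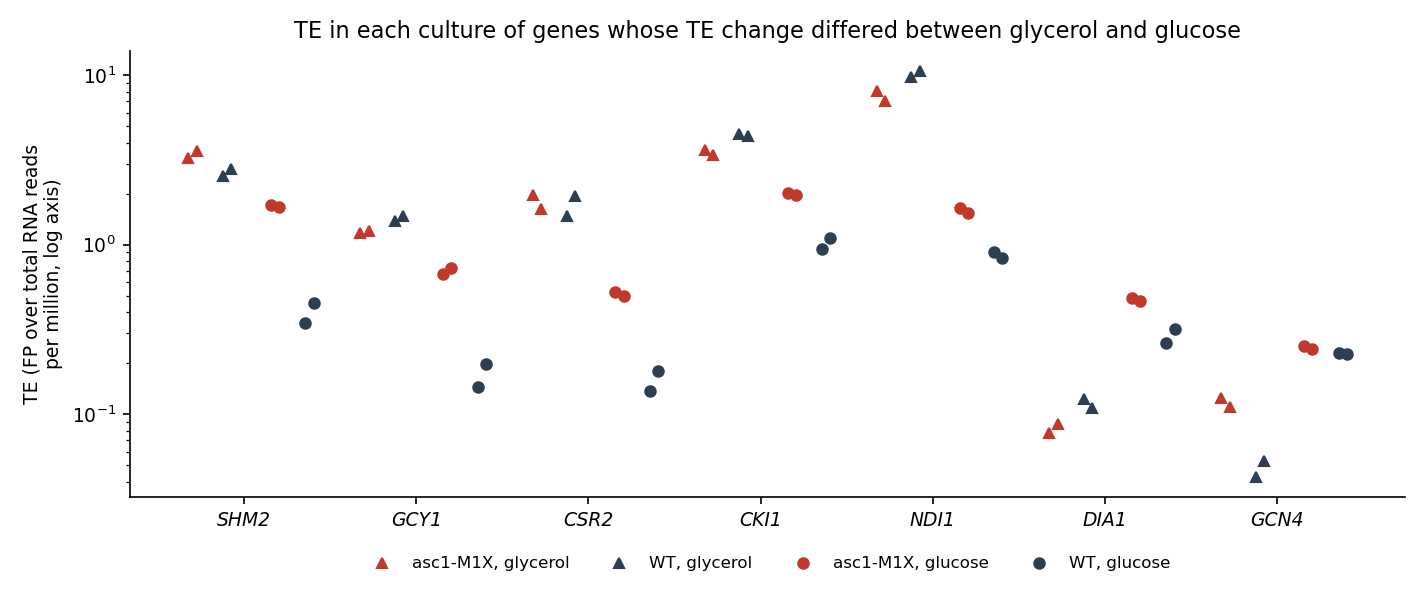
TE (FP over total RNA, each relative to the library total alone, log axis) in each culture of the 7 genes whose TE change differed between media. Glycerol is shown as triangles left of glucose as circles, asc1-M1X in red and WT in dark blue. For SHM2, GCY1 and CSR2 the strains lie apart in glucose and close together in glycerol, and for GCN4 the reverse holds.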

How the data were processed

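Footprint and total RNA libraries of 2 cultures per strain were compared. Per the paper's methods and the labels, the authors aligned reads with TopHat to the Sigma1278b genome, splice junctions first, used only uniquely aligned reads and left out the first 30 codons of each ORF. The deposited values used are the authors' raw read counts per ORF. Their RPKM columns and their files of fold changes, which hold their own comparisons, were not used. Tool versions are not given in the sources used here.

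Counts were fitted in edgeR 4.0.16 (R 4.3.3) by quasi-likelihood with TMM scaling within library type, Benjamini-Hochberg adjustment over all genes tested and a threshold of 0.05. Genes needed 128 reads summed over the FP and 128 over the total RNA libraries, and 19 mitochondrially encoded genes were not fitted. TE is the interaction of library type and strain, and SE is the change divided by the square root of F. The method was tested on simulated data. FP and total RNA of one culture come from one extract, and their deviations correlated (0.15 in asc1-M1X, 0.35 in WT), so the paired TE count stands beside the main one. Gene spans came from the RefSeq table of S288C (release 64), by ORF name. DESeq2 1.42.0, other scalings, filters, Ribo-Zero RNA, a replicate block and omission of each culture were tried.

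Genes named are ASC1, the 10 largest TE and 6 largest FP or total RNA changes in each direction among calls with at least 10 reads in each library and 1 sign in both pairs, up to 4 TE and 3 FP or total RNA calls by p per group and direction, any member of groups of up to 20, 4 per class, 5 short genes, and the genes called in the glycerol and asc1-Null comparisons. The comparison, the 37 gene lists and the members named were chosen with earlier results of these data known. Some genes are not reported here. Libraries of one strain differed by more than counting error (chi-square per degree of freedom 2.53 to 5.06). The spread includes that between the asc1-M1X isolates, but WT is a single strain.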

Additional observations from a re-analysis of the deposited data

Results flagged for a closer look

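The TE change of asc1-M1X over WT differed between glycerol and glucose for 7 genes by the interaction test of edgeR, as glycerol minus glucose. The difference was -1.75 for SHM2, -2.28 for GCY1, -1.57 for CSR2, -1.29 for CKI1, -1.28 for NDI1, -1.16 for DIA1 and 1.20 for GCN4. CKI1, choline kinase, had a TE change of -0.34 in glycerol and 0.94 in glucose. Between asc1-M1X and asc1-Null in glucose, edgeR called a difference of -0.91 in FP of CPA1, and of 7.10 in total RNA and -6.10 in TE of ASC1, whose mRNA is made in asc1-M1X and whose locus is deleted in asc1-Null.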

How the results depend on the processing

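No FP, total RNA or TE count fell to 0 under any alternative run. The total RNA count was 1177 with DESeq2, 2648 with a replicate block and 824 to 1781 without one culture. The TE count was 638 with DESeq2, 453 with Ribo-Zero RNA (361 of them also called with poly(A)-selected RNA) and 211 to 857 without one culture, and 1594 with a replicate block. The FP count was 1879 with DESeq2, 2935 with a replicate block and 2151 to 2414 without one culture. For FP and total RNA the block is the culture number, which the labels do not tie to a shared day, and same-numbered asc1-M1X and WT deviations correlated at 0.13 in FP and 0.34 in total RNA. The glycerol minus glucose count was 12 with library totals alone, 39 with DESeq2, 207 with a replicate block and 0 to 15 without one culture. Omitting one culture number from all groups at once could not be fitted there, as no residual degrees of freedom remained. Between asc1-M1X and asc1-Null the FP count was 2 with library totals alone, 2 with no filter, 22 with a replicate block and 2 to 42 without one culture. The total RNA count was 10 with a replicate block and 1 to 23 without one culture, and the TE count was 2 with library totals alone, with DESeq2 and with a replicate block, and 1 to 2 without one culture. Spearman's rho of length with the TE change was 0.23 without ribosomal protein genes, 0.068 with Ribo-Zero RNA, 0.25 with at least 10 reads in every library, 0.22 with no filter, 0.24 without genes whose span is not a multiple of 3, and 0.24 to 0.25 from one pair of cultures. For total RNA it was -0.30 without ribosomal protein genes, -0.026 with Ribo-Zero RNA and -0.26 to -0.22 from one pair. Signs of single genes with Ribo-Zero RNA were compared only for genes named in the text, so the list that follows is not complete for all genes. Among changes of named genes past the threshold with either RNA, the sign with Ribo-Zero RNA was the opposite for total RNA of ATG41 (0.28), CDC60 (0.25), MPP10 (0.23), DED1 (0.064), GLY1 (0.49), PFK2 (0.13), SHM2 (0.44), SKI3 (0.20) and YPS1 (0.18). For TE it was the opposite for CDC60 (-0.014), ENO1 (-0.071) and YEF3 (-0.11). The cause was not tested in these cases.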
